A study of Mus musculus with 24 samples.

Results

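The semaphorins, plexins, Eph receptors and ephrins were taken as every gene whose symbol in the platform annotation starts with Sema, Plxn, Epha, Ephb, Efna or Efnb. A gene was a member where at least 1 of its probes had a detection p-value under 0.05 on 6 or more of the 24 arrays, and it was read from its brightest such probe. The rule held for 32 of the 49 genes with such a symbol, out of 11439 named genes measured in the whole series. The members were 14 of 19 semaphorins, 6 of 9 plexins, 7 of 13 Eph receptors and 5 of 8 ephrins. Not detected often enough were Sema3c, Sema3d, Sema3g, Sema4c, Sema6c, Plxna1, Plxna3, Plxna4, Epha1, Epha2, Epha6, Epha8, Epha10, Ephb3, Efna2, Efna4 and Efnb2. At the edge of the rule, Plxnb1 was detected on 8 arrays and Epha4, Sema3b and Plxnc1 on 9, whereas Sema3c, just outside it, was detected on 5.

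The study measured RNA in the cerebellum and the frontal cortex of untreated 10-week-old SJL/JOrlCrl mice, an inbred strain used in research on autoimmune inflammation of the central nervous system. It used Illumina MouseWG-6 v2.0 bead arrays, on which each probe reads 1 stretch of a transcript. The groups were female cerebellum, male cerebellum, female frontal cortex and male frontal cortex, with 6 arrays each, from 12 animals that each gave both regions. The labels list no transgene, deletion or treatment for any group, and the stated purpose was to find transcripts that differ by sex in the cerebellum.

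Semaphorins are secreted, membrane-spanning or lipid-anchored signals that mostly act through plexins, and the secreted class 3 usually needs a neuropilin as co-receptor. Eph receptors are tyrosine kinases on the cell surface, and ephrins are their membrane-bound ligands, so that contact between cells can signal into both. In the developing brain these families steer axons and migrating neurons. In the adult brain many of them are found at synapses, on glia and on blood vessels.

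Promoter sequences from RefSeq, assembly GRCm38.p6, are shown for the pair of members with the largest reductions and the pair with the largest increases in cerebellum relative to frontal cortex. Each covers the 250 bases before the annotated start of transcription, read 5′ to 3′ on the strand of the gene, at chr6:41605261-41605510 (plus strand) for Ephb6, chr5:84417383-84417632 (minus strand) for Epha5, chr15:89180789-89181038 (minus strand) for Plxnb2 and chr19:44989094-44989343 (plus strand) for Sema4g. Capitals mark the GC box GGGCGG, or CCGCCC where it lies on the other strand.
Ephb6: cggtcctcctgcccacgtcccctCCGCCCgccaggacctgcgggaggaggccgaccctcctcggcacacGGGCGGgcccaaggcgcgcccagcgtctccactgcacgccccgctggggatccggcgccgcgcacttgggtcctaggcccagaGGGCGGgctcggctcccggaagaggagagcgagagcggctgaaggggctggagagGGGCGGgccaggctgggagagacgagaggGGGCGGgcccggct
Epha5: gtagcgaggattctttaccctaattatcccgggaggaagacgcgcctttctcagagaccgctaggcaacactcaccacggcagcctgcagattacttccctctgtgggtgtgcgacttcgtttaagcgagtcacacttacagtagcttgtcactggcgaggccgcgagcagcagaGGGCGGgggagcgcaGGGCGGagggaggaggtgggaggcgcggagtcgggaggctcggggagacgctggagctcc
Plxnb2: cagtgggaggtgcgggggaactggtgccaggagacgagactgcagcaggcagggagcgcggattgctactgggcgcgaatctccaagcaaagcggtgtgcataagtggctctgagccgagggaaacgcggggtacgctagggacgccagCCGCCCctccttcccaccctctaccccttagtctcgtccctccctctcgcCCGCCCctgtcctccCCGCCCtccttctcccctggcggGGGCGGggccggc
Sema4g: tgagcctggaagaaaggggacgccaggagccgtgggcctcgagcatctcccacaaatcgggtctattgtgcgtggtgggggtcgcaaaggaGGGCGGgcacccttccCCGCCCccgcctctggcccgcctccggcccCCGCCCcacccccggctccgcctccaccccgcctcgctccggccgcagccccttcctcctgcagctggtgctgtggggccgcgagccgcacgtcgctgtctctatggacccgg

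The Ephb6 promoter held 5 GC boxes and the Epha5 promoter 2, against 4 in Plxnb2 and 3 in Sema4g, so the motif stood in promoters of genes that differed in opposite directions. The table matched 28 of the 32 members. It holds no entry that matched Efnb3, Sema3b, Sema3f or Sema6a. GGGCGG was found on either strand in 21 of the 28 promoters, against 55.3% of 11878 annotated starts of measured genes and 42.6% of 21263 starts of protein-coding genes. A member with several starts was read at the one farthest upstream. It was present in 6 of 10 promoters of members higher in cerebellum, 9 of 12 of members lower there and 6 of 6 of members not past the threshold. TATAAA, also searched on either strand, was in 0 of the 28 promoters and in 6.97% of the starts of measured genes. The E-box CAGATG, searched in the same way, was in 1 promoter, that of Efna3, and in 10.5% of the starts of measured genes. A match describes these letters in this window and was not tested for binding.

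Median signal ran from 69.3 to 75.2 intensity units per array, and 18099 to 19927 of 45281 probes were detected. Arrays of the same group correlated at 0.983 or more, and arrays of different tissues at 0.934 or less. The tissue labels were checked against defining markers. Pcp2, a Purkinje cell gene, was at least 291-fold higher in cerebellum and was detected on 0 of 12 frontal cortex arrays. Cbln1, made by granule cells, averaged 14.25 ± 0.08 in cerebellum and 7.99 ± 0.34 in frontal cortex (log2 intensity, SD, n = 12 each). Nrgn, of cortical excitatory neurons, averaged 5.47 ± 1.01 in cerebellum and 12.20 ± 0.15 in frontal cortex. It had the largest reduction of 8 such markers measured, of which 7 were lower in cerebellum and 1, Neurod2, was higher (0.76). All 3 Purkinje cell and all 6 granule cell markers measured were higher in cerebellum. Each group held 2 arrays of label batch a and 4 of label batch b, which are told apart by a tag that the labels do not explain.

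By adjusted p alone, the guidance genes split almost evenly between the regions. At 2-fold or more, and by arrays that did not overlap, more members were lower in cerebellum than higher. In cerebellum 11 of the 32 members were higher and 13 were lower than in frontal cortex, averaged over the sexes, and 8 did not pass an adjusted p of 0.05 (limma, Benjamini-Hochberg over all 21113 kept probes). Over all measured genes 70.5% passed the same test, 37.6% as higher and 32.9% as lower, so the share of members that passed, 75%, lay near the background. At 2-fold or more, 3 members were higher, where 5.98% of all genes were, and 7 were lower, where 7.96% were. These counts depended on the background correction: without it, with normexp by maximum likelihood or with the authors' values, 0 members were higher and 6 lower at 2-fold or more, the calls by adjusted p being 11 higher and 12 lower. The 12 cerebellum arrays lay above all 12 frontal cortex arrays for 4 members, where 15.8% of all genes did so, and below all of them for 11 members, where 15.5% did so. Of the 23 members detected on all 24 arrays, 10 were higher, 10 were lower and 3 did not pass. A fit of only the probes detected on all 24 arrays gave 3 members higher and 5 lower at 2-fold or more. The lower side of the 2-fold and no-overlap counts held Ephb6 and Efna3, detected on 2 and 6 of 12 cerebellum arrays. Ephb6, Efnb3 and Sema3e reached 6 detected arrays in frontal cortex and not in cerebellum, so the detection rule itself favoured a lower level in cerebellum for them. In bulk tissue, fewer cells of a type and less RNA per cell cannot be told apart. With label batch a alone 8 members were higher and 12 lower, and with label batch b alone 11 were higher and 15 lower. For the batch fits, the other background corrections and the fit of probes detected on all 24 arrays the share of all genes that passed is not given. These counts therefore have no background to be set against. The 11 of batch b were not the same genes, since Ephb1 did not pass there (adjusted p 0.13) and Plxnb1 did (0.28, adjusted p 0.033). In batch a the fitted difference was -2.67 for Ephb6, -2.47 for Epha5, 1.58 for Sema4g and 1.39 for Plxnb2, and in batch b it was -2.59 for Ephb6, -2.66 for Epha5, 1.59 for Sema4g and 1.28 for Plxnb2.

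**Figure D1:**
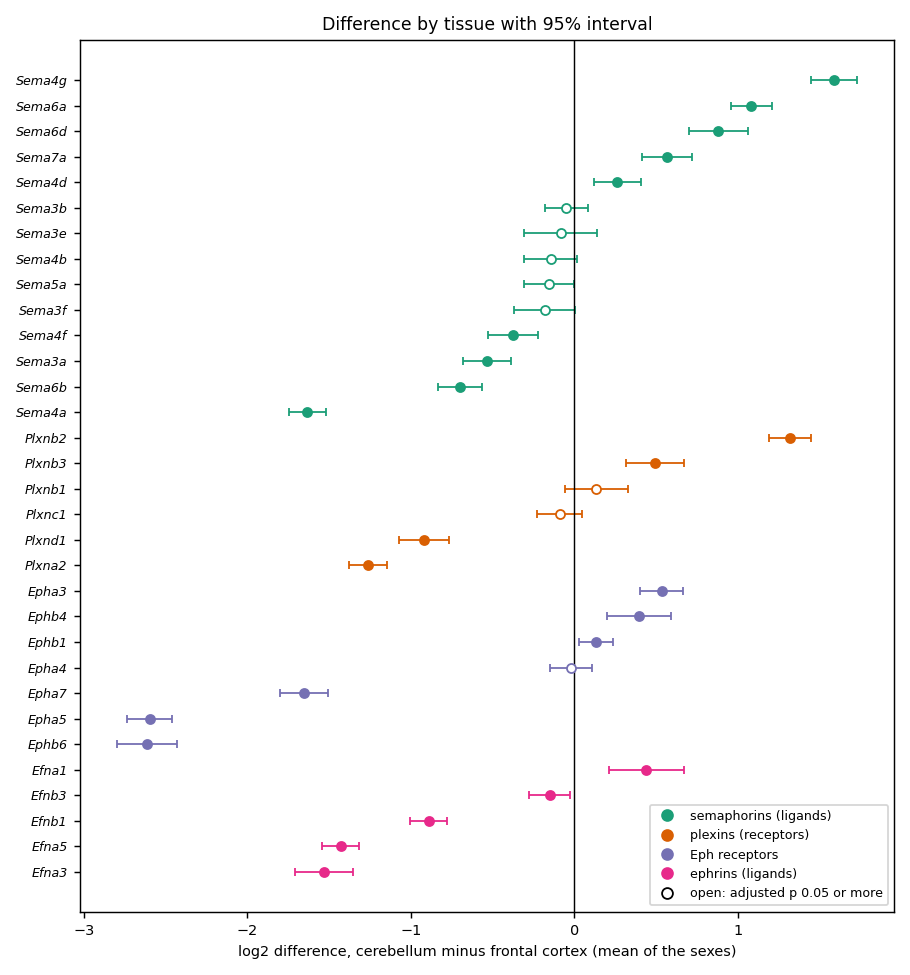
Log2 difference in level, cerebellum minus frontal cortex (horizontal axis, mean of the sexes, 12 arrays per tissue), for each of the 32 members, grouped by family, with 95% interval. Filled points passed an adjusted p of 0.05 and open points did not; the 5 ephrins lie mostly left of 0, with Efna1 at 0.44, while the other families spread to both sides.

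The ephrins, ligands of the Eph receptors, held 4 members that fell and 1 that rose in cerebellum, where 32.9% of all genes fell and 37.6% rose. Their median log2 difference was -0.89, against 0.03 over all genes. It was -0.46 without background correction, -0.53 with normexp by maximum likelihood, -0.52 with the authors' values and -0.12 with no filter on dim probes, which adds the undetected ephrins. Efna5, a lipid-anchored ephrin known for guiding topographic maps, had log2 levels of 8.49, 8.69 and 8.91 in cerebellum (lowest, median and highest of 12 arrays), against 9.90, 10.12 and 10.33 in frontal cortex. The groups did not overlap, and the difference was -1.43 ± 0.05 (SE; adjusted p 7.96e-19 with limma). Efna3, another lipid-anchored ephrin, was detected on 6 of 12 cerebellum arrays and on 12 of 12 frontal cortex arrays. Its log2 levels were 4.40, 4.72 and 5.00 in cerebellum, around the dimmest detected level of 4.67 to 4.81, against 5.74, 6.31 and 6.65 in frontal cortex. Measured against that dimmest detected level, Efna3 was at least 2.87-fold lower in female cerebellum and at least 2.59-fold lower in male cerebellum (3 of 6 arrays detected in each). Its fitted log2 difference was -1.53 ± 0.09 (adjusted p 7.71e-15), and -0.64 without background correction. The reduction held in 12 of 12 animals for both genes.

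Efnb1, a membrane-spanning ephrin encoded on the X chromosome, had log2 levels of 5.39, 5.74 and 6.01 in cerebellum, against 6.46, 6.63 and 6.72 in frontal cortex. These ranges did not overlap, and the difference was -0.89 ± 0.06 (SE; adjusted p 5.52e-14), or -0.46 without background correction. Efnb3, a membrane-spanning ephrin that acts as a midline barrier in the mouse spinal cord, differed by only -0.15 ± 0.06 (adjusted p 0.030), and its ranges of 4.52 to 4.94 in cerebellum and 4.63 to 5.08 in frontal cortex overlapped. It was detected on 5 cerebellum and 9 frontal cortex arrays, and its difference was 0.0045 with label batch a alone and -0.23 with label batch b alone. Efnb3 did not pass without background correction (-0.05, adjusted p 0.068), with normexp by maximum likelihood (-0.07, adjusted p 0.064) or with the authors' values (-0.06, adjusted p 0.065). Efna1, an ephrin often studied on blood vessels, was the member of the family that rose. It was detected on 12 of 12 cerebellum arrays, with levels of 4.87, 5.36 and 5.65, and on 7 of 12 frontal cortex arrays, with levels of 4.30, 4.95 and 5.26. The groups overlapped, the difference was 0.44 ± 0.11 (adjusted p 0.0011) and 0.17 without background correction, and 9 of 12 animals had the higher level in cerebellum.

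The Eph receptors held the largest reductions of any member. Ephb6, a receptor that lacks kinase activity, was detected on 2 of 12 cerebellum arrays, both from males, and on 12 of 12 frontal cortex arrays. Its log2 levels were 4.34, 4.49 and 5.01 in cerebellum, against 6.70, 7.11 and 7.63 in frontal cortex, with no overlap. Ephb6 was at least 5.70-fold lower in female cerebellum, where 0 of 6 arrays detected it, and at least 4.80-fold lower in male cerebellum, where 2 of 6 did. The fitted log2 difference was -2.61 ± 0.09 (adjusted p 9.80e-20), and the animals ranged from -3.25 to -2.25. Epha5, an ephrin-A receptor of forebrain neurons, was detected on every array, with levels of 5.42, 5.80 and 6.06 in cerebellum and 8.18, 8.39 and 8.58 in frontal cortex. This gap of more than 2 log2 units between the closest arrays corresponded to a difference of -2.60 ± 0.07, or 6.05-fold (adjusted p 1.64e-22).

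Epha7, an ephrin-A receptor studied in cortical neurons, had levels of 5.97, 6.29 and 6.61 in cerebellum, against 7.76, 7.92 and 8.27 in frontal cortex, again without overlap. It was 3.14-fold lower in cerebellum, with a log2 difference of -1.65 ± 0.07 (adjusted p 1.39e-17). The difference without background correction was smaller, at -1.26 for Ephb6, -1.72 for Epha5 and -1.11 for Epha7, and each still passed the threshold. Epha3, an ephrin-A receptor, went the other way, with levels of 7.39, 7.72 and 7.90 in cerebellum and 6.97, 7.11 and 7.55 in frontal cortex. The ranges overlapped, yet 11 of 12 animals had the higher level in cerebellum and the difference was 0.53 ± 0.06 (adjusted p 3.11e-08).

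Ephb4, the ephrin-B2 receptor of venous endothelium, was higher in cerebellum by 0.40 ± 0.09 (adjusted p 0.00056), or 0.17 without background correction, with levels of 5.24, 5.85 and 6.09 there and 4.87, 5.39 and 5.60 in frontal cortex. Of 6 endothelial markers, 2 were higher in cerebellum and 4 did not pass, with summed levels (linear normalized intensity) of 2007 to 2518 in cerebellum and 1720 to 2418 in frontal cortex; their part in the Ephb4 difference was not tested. Ephb1, a receptor found at synapses, differed by 0.13 ± 0.05 (adjusted p 0.023), with overlapping levels of 9.65, 9.90 and 10.06 in cerebellum and 9.46, 9.81 and 9.94 in frontal cortex. The sign for Ephb1 turned to -0.06 when arrays were scaled to equal medians in place of quantile normalization. Ephb1 also did not pass with cyclic loess (adjusted p 0.089) or in either label batch alone (adjusted p 0.245 in a and 0.13 in b). Epha4, a receptor that binds ephrins of both classes, was near the detection limit, with 5 cerebellum and 4 frontal cortex arrays detected and a difference of -0.02 ± 0.06 (95% interval -0.15 to 0.11).

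**Figure D2:**
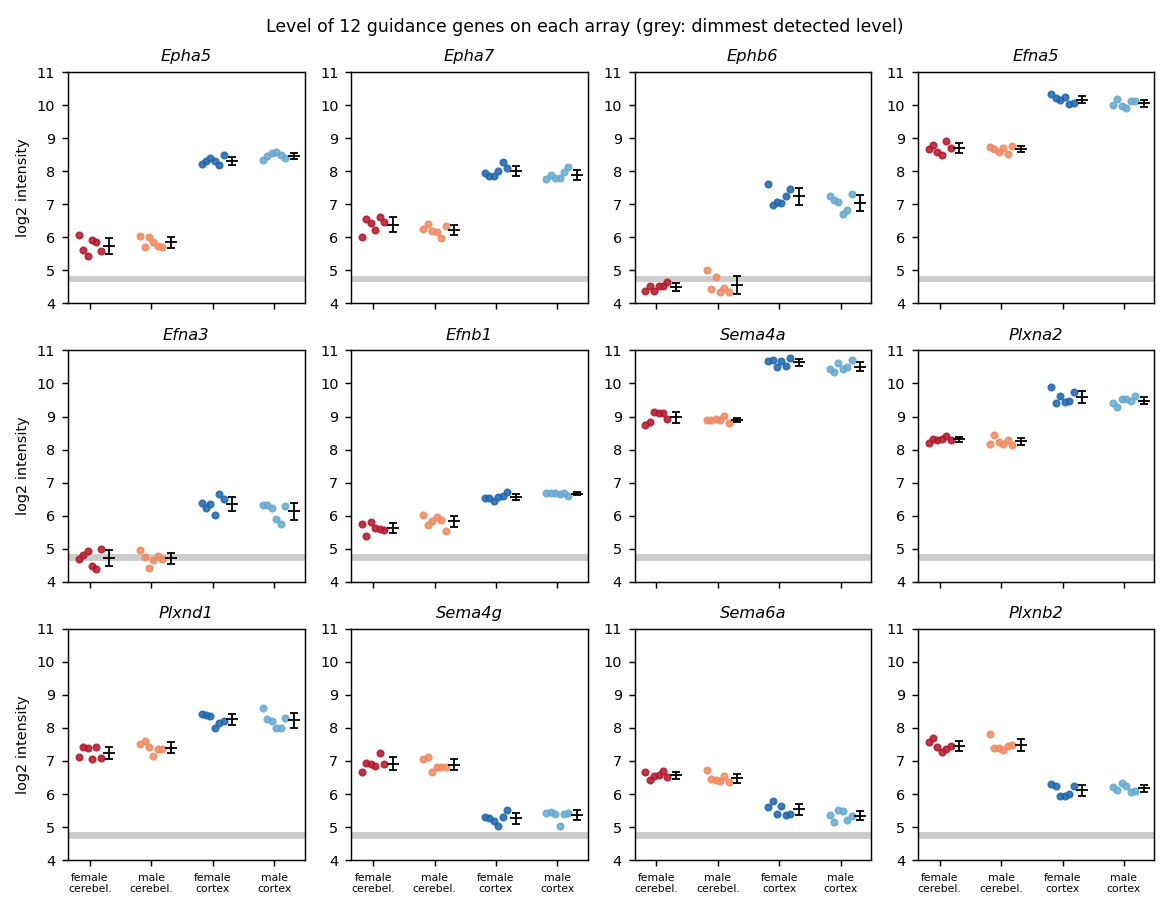
Log2 intensity (vertical axis) of 12 members on each of the 24 arrays, with 6 arrays per group, replicates 1 to 6 from left to right, and bars for the mean and SD of the group. Points of Ephb6 and Efna3 in cerebellum lie at or near the grey band, which is the dimmest detected level of 4.67 to 4.81, while the other 10 genes lie above it on every array.

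Among the semaphorins, 5 rose, 4 fell and 5 of 14 did not pass, and the median difference was -0.11. The share that passed, 64.3%, lay near the 70.5% of all genes. Sema4g, a membrane-spanning semaphorin that acts through plexin-B2 in the mouse cerebellum, had log2 levels of 6.67, 6.88 and 7.25 in cerebellum, against 5.03, 5.35 and 5.52 in frontal cortex. Every cerebellum array lay above every frontal cortex array. The difference was 1.59 ± 0.07, or 3.01-fold (adjusted p 1.84e-17), and 0.81 without background correction. Sema6a, a membrane-spanning ligand of plexin-A2 that guides granule cell migration in mice, had levels of 6.35, 6.52 and 6.72 in cerebellum, against 5.16, 5.39 and 5.80 in frontal cortex. These groups were also separate, with a difference of 1.08 ± 0.06, or 2.12-fold (adjusted p 5.24e-15), and 0.53 without background correction.

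Sema6d, a membrane-spanning ligand of A-type plexins, had levels of 8.09, 8.41 and 8.78 in cerebellum, against 7.20, 7.45 and 7.90 in frontal cortex, with no overlap and a difference of 0.88 ± 0.09 (adjusted p 9.15e-10). Sema7a, the lipid-anchored semaphorin, had levels of 9.92, 10.35 and 10.58 in cerebellum, against 9.40, 9.84 and 9.99 in frontal cortex. The ranges just overlapped, 12 of 12 animals were higher in cerebellum, and the difference was 0.57 ± 0.07 (adjusted p 1.68e-07). Sema4d, a membrane-spanning semaphorin made by oligodendrocytes and by T cells, had levels of 5.08, 5.31 and 5.59 in cerebellum, against 4.77, 5.10 and 5.40 in frontal cortex. The groups overlapped, and the difference was 0.26 ± 0.07 (adjusted p 0.0014), or 0.09 without background correction.

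Sema4a, a membrane-spanning semaphorin also known from immune cells, had the largest reduction of the family. Its levels were 8.75, 8.91 and 9.13 in cerebellum, against 10.34, 10.57 and 10.76 in frontal cortex. No arrays overlapped, and the difference was -1.63 ± 0.06, which is 3.10-fold (adjusted p 6.91e-20). Sema6b, a membrane-spanning ligand of A-type plexins, had levels of 7.76, 7.98 and 8.26 in cerebellum, against 8.42, 8.69 and 8.98 in frontal cortex. It was lower by -0.70 ± 0.07 on the log2 scale (adjusted p 3.53e-10), again with separate groups. Sema4f, another membrane-spanning member, had levels of 8.03, 8.30 and 8.51 in cerebellum, against 8.31, 8.67 and 9.17 in frontal cortex, and its difference was -0.38 ± 0.07 (adjusted p 7.34e-05) with overlapping groups.

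Of the 4 secreted class 3 semaphorins measured, only Sema3a passed. Sema3a, which repels axons through neuropilin-1 and A-type plexins, had levels of 6.23, 6.50 and 6.70 in cerebellum, against 6.79, 7.07 and 7.27 in frontal cortex. Its arrays were separate and its difference was -0.53 ± 0.07 (adjusted p 1.99e-07), or -0.33 without background correction, but a dimmer probe of the gene went the other way, as given with the probes. Sema3f, which signals through neuropilin-2, had a difference of -0.18 ± 0.09 (adjusted p 0.076, or 0.036 with the animal as a fixed block). Sema3e, a ligand of plexin-D1, was detected on 4 cerebellum and 6 frontal cortex arrays and differed by -0.08 ± 0.11 (95% interval -0.31 to 0.14). Sema3b, detected on 4 and 5 arrays, differed by -0.05 ± 0.06 (95% interval -0.18 to 0.08). The membrane-spanning Sema4b and Sema5a, detected on every array, had differences of -0.14 ± 0.08 (adjusted p 0.11) and -0.15 ± 0.07 (adjusted p 0.066). Sema5a passed with the animal as a fixed block (adjusted p 0.039). With the label batch as a block both passed, at an adjusted p of 0.038 for Sema4b and 0.032 for Sema5a. The levels of Sema3f, Sema4b and Sema5a overlapped between the tissues. With arrays scaled to equal medians all 3 passed as lower in cerebellum, at -0.31 for Sema3f, -0.31 for Sema4b and -0.33 for Sema5a.

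The plexins, receptors of the semaphorins, held 2 members that rose, 2 that fell and 2 that did not pass, with a median difference of 0.02. The share that passed, 66.7%, lay near the 70.5% of all genes. Plxnb2, a receptor needed for granule cell development in the mouse cerebellum, had log2 levels of 7.27, 7.43 and 7.81 in cerebellum, against 5.95, 6.17 and 6.34 in frontal cortex. All cerebellum arrays lay higher, by 1.32 ± 0.06 on the log2 scale, or 2.50-fold (adjusted p 2.00e-16), and by 0.82 without background correction. Plxnb3, a receptor of Sema5a encoded on the X chromosome, had levels of 5.49, 5.87 and 6.21 in cerebellum, against 4.93, 5.38 and 5.66 in frontal cortex. The groups overlapped, 12 of 12 animals were higher in cerebellum, and the difference was 0.50 ± 0.09 (adjusted p 1.22e-05), or 0.21 without background correction.

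Plxna2, a receptor of class 6 semaphorins and, with neuropilins, of class 3, had levels of 8.15, 8.28 and 8.45 in cerebellum, against 9.29, 9.50 and 9.88 in frontal cortex. It was 2.40-fold lower in cerebellum, with a difference of -1.26 ± 0.06 (adjusted p 4.51e-17) and no overlap. Plxnd1, the receptor of Sema3e, had levels of 7.05, 7.38 and 7.60 in cerebellum, against 7.99, 8.24 and 8.60 in frontal cortex. These were separate as well, with a difference of -0.92 ± 0.07 (adjusted p 1.41e-11). Plxnb1, the Sema4d receptor, and Plxnc1, the Sema7a receptor, were detected on 8 and 9 of 24 arrays. Plxnb1 differed by 0.13 ± 0.09 (95% interval -0.06 to 0.33), with -0.15 in label batch a and 0.28 in label batch b, where it passed (adjusted p 0.033). Plxnc1 differed by -0.09 ± 0.07 (95% interval -0.23 to 0.05), and the groups overlapped for both.

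Set side by side, ligands and their known receptors did not follow 1 pattern. Sema4g and its receptor Plxnb2 were both higher in cerebellum, by 1.59 and 1.32. Sema6a was higher by 1.08 while its receptor Plxna2 had a difference of -1.26. Efna5 and 2 of its receptors, Epha5 and Epha7, were all lower, at -1.43, -2.60 and -1.65, whereas Epha3, which also binds Efna5, was higher by 0.53. Sema7a was higher by 0.57 and its receptor Plxnc1 did not pass, and Plxnd1 was at -0.92 while its ligand Sema3e did not pass. Plxnc1 and Sema3e lay around the dimmest detected level in both tissues, so a difference in them could be missed. Of the 19 ligands 6 rose and 8 fell, and of the 13 receptors 5 rose and 5 fell. Over all genes 37.6% rose and 32.9% fell. The shares that passed, 73.7% of ligands and 76.9% of receptors, lay near the 70.5% of all genes. The median difference was -0.15 for ligands and -0.02 for receptors, against 0.03 for all genes. These medians are the values of Efnb3 and Epha4, both near the dimmest detected level.

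**Figure D3:**
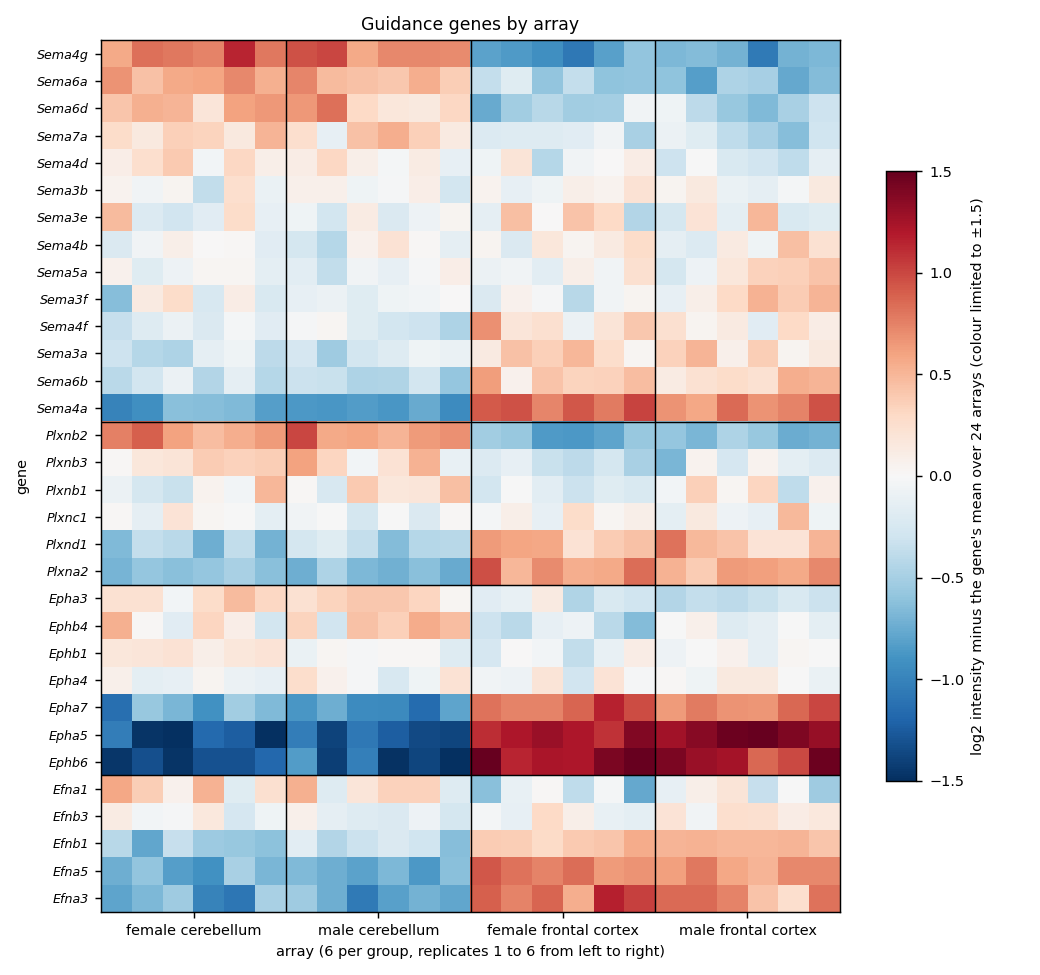
Each of the 24 arrays (columns, 6 per group, replicates 1 to 6 from left to right) by each of the 32 members (rows, grouped by family), coloured by log2 intensity minus the mean of the gene over all arrays, with colours limited to 1.5 either way. Epha5 and Ephb6 are the rows with the strongest contrast, at differences of -2.60 and -2.61, and rows such as Sema3b (-0.05) and Epha4 (-0.02) show no block by tissue.

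Other cell types moved with the tissues as well. Over all genes 37.6% were higher in cerebellum and 32.9% lower. Of 7 oligodendrocyte markers measured, 6 were higher in cerebellum and 1 did not pass, with summed levels of 27888 to 37630 in cerebellum and 15232 to 28883 in frontal cortex. Their log2 differences ran from -0.12 for Ermn to 0.89 for Cnp with a median of 0.42, beside 0.50 for Plxnb3, 0.88 for Sema6d and 0.26 for Sema4d. Of 3 oligodendrocyte precursor markers 2 were lower in cerebellum, with a median of -0.78. Of 5 microglial markers all 5 were lower in cerebellum, with sums of 275 to 335 in cerebellum and 717 to 825 in frontal cortex. Choroid plexus markers ran from 603 to 12791 in cerebellum and from 149 to 477 in frontal cortex, with 5 of 6 higher in cerebellum. Of 7 striatal neuron markers measured, 6 were lower in cerebellum and 1 did not pass, with a median of -1.52. Their sums were 2506 to 3322 in cerebellum and 2125 to 10862 in frontal cortex. In cerebellum Ppp1r1b, which did not pass, averaged a log2 level of 11.45, and the others averaged 4.34 (Gpr6) to 5.30 (Penk). The sum there was thus mostly Ppp1r1b. Of 3 olfactory bulb markers 2 were lower in cerebellum and 1 was higher, with a median of -0.62. The 20 arrays left without replicates 1 and 2 of both cerebellum groups, an alternative chosen after seeing the data, gave 11 members higher and 13 lower. Plxnb1 (0.24, adjusted p 0.036) was then among the higher ones in place of Ephb1 (0.13, adjusted p 0.062). The arrays left out were the cerebellum arrays of label batch a. Cerebellum of batch b was thus set against frontal cortex of both batches, and tissue was partly mixed with label batch. What part these cell types have in the differences of members was not tested.

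Reading of the differences rested on the probe in a few genes. The 13 members with more than 1 kept probe had 20 dimmer probes, of which 17 had the sign of the brightest probe, the exceptions being 1 probe each of Sema3a, Sema5a and Sema6a. Of the 17 dimmer probes whose brightest probe passed, 12 passed in the same direction and 1 in the opposite one. Both dimmer probes of Epha5 were lower in cerebellum, at fitted values of -1.30 and -1.38, with detection there on 2 and 4 of 12 arrays. They met the detection rule only with frontal cortex arrays, so the rule itself favoured a lower level in cerebellum for them. The dimmest detected level also limits their differences. Both dimmer probes of Plxnd1 were lower as well, at -0.91 and -0.50. The dimmer probe of Sema3a was detected on 9 of 12 cerebellum arrays and 0 of 12 frontal cortex arrays. The detection rule itself thus favoured a higher level in cerebellum for it, and frontal cortex gave only a bound. Its fitted difference was 0.55 ± 0.08 (adjusted p 1.63e-06 with limma), opposite to the -0.53 of the brightest. The mean of both Sema3a probes, which takes in that fitted value, differed by 0.0067. The dimmer probe of Sema6a, detected on 6 cerebellum and 4 frontal cortex arrays, differed by -0.02 ± 0.06, and 1 of 3 dimmer probes of Epha7 differed by -0.07 ± 0.10. The dimmer probe of Sema3f passed where the brightest did not, at -0.27 ± 0.10 (adjusted p 0.015). The transcript stretches these probes read were not analysed here.

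**Figure D4:**
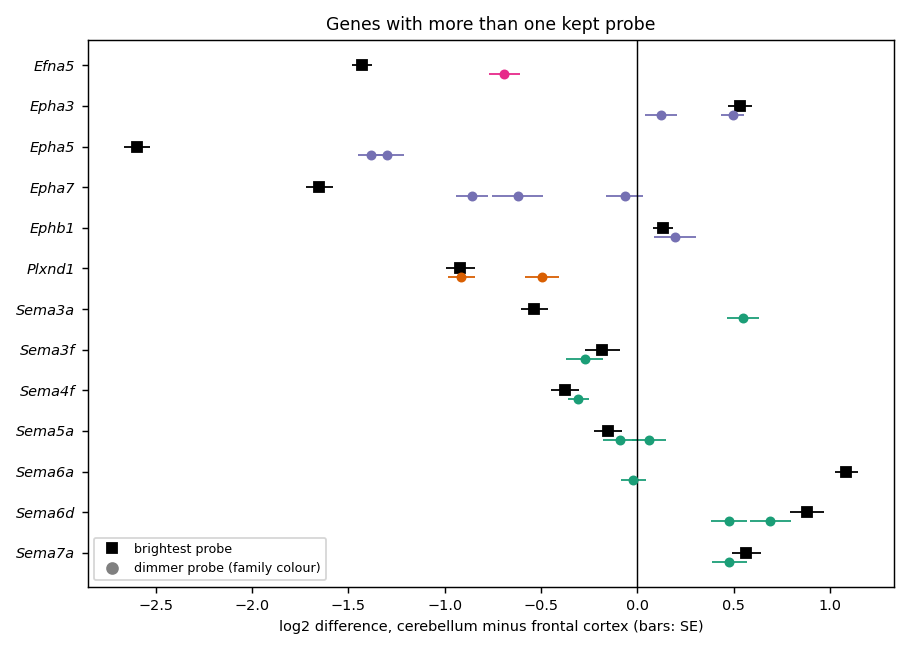
Log2 difference, cerebellum minus frontal cortex (horizontal axis, bars for the SE), for the 13 genes with more than 1 kept probe. Squares are the brightest probe and circles the dimmer ones (green for semaphorins, orange for plexins, purple for Eph receptors, pink for ephrins). The Sema3a probes, which both passed, lie on opposite sides of 0, at -0.53 and 0.55. The Sema3a circle is drawn at a fitted value, although that probe was not detected in frontal cortex. The Epha5 circles at -1.38 and -1.30 lie nearer 0 than its square at -2.60. They are limited by the dimmest detected level, since few cerebellum arrays detected those probes.

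The tissues were also compared within each sex. In females 10 members were higher and 12 lower in cerebellum, where 33.1% of all genes were higher and 27.4% lower, 60.5% in all. In males 9 members were higher and 15 lower, where 31.5% of all genes were higher and 29.1% lower, 60.7% in all. The sign was the same in females and males for 30 of the 32 members, the exceptions being Ephb1 and Epha4. Epha5 differed by -2.57 in females and -2.63 in males, and Ephb6, for which cerebellum gave only bounds, was at least 5.70-fold lower in females and at least 4.80-fold lower in males. Sema4g differed by 1.65 in females and 1.52 in males, and Plxnb2 by 1.34 in females and 1.30 in males. A group of 6 members passed in 1 sex but not in the other: Efna1 and Ephb1 in females, and Efnb3, Sema3f, Sema4d and Sema5a in males. The test of that difference between the sexes, the interaction, did not pass for any of the 6, with a lowest adjusted p of 0.52.

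**Figure D5:**
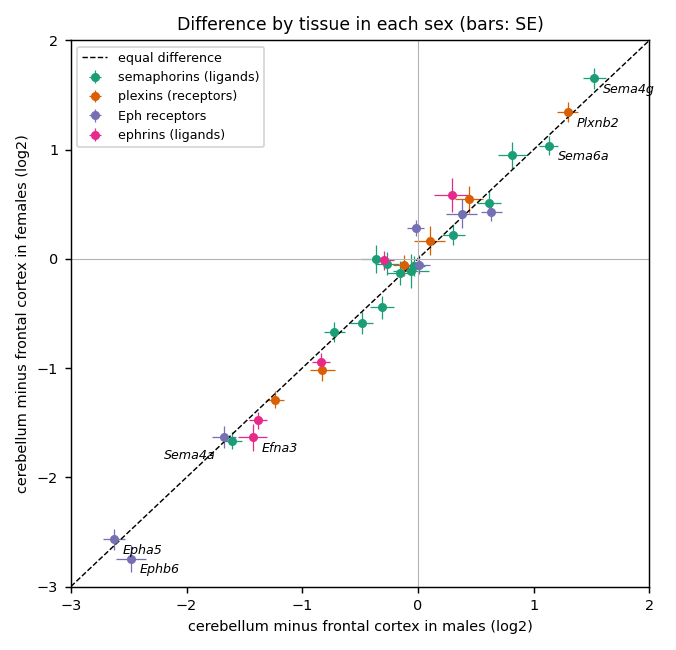
Log2 difference, cerebellum minus frontal cortex, in females (vertical axis) and in males (horizontal axis) for the 32 members, with bars for the SE and a dashed line where both are equal. Members lie near the line, from Epha5 at -2.57 in females and -2.63 in males to Sema4g at 1.65 in females and 1.52 in males; Ephb6 and Efna3 are drawn at fitted values, although cerebellum gave only bounds for them.

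No member differed by sex past the threshold. In cerebellum, the question the study set out to ask, 0 of 32 passed with limma at an adjusted p of 0.05, where 0.114% of all genes did. In frontal cortex 0 of 32 passed, where 0.157% of all genes did. For the interaction of sex and tissue 0 of 32 passed, where 0.0787% of all genes did. In each of these 3 comparisons 2 members had an unadjusted p under 0.05 with limma. Of all 11439 genes, 624 had such a p in cerebellum, 1037 in frontal cortex and 778 for the interaction. Female minus male differences ran from -0.22 to 0.21 in cerebellum and from -0.38 to 0.22 in frontal cortex. Half-widths of the 95% intervals in cerebellum, which are not adjusted for the number of probes, ran from 0.15 to 0.33 on the log2 scale. A call after adjustment needed a larger difference, so sex differences of this size could be missed with 6 arrays per group. Ephb1, at 0.21 (95% interval 0.07 to 0.36), had an adjusted p of 0.60 with limma.

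The lowest unadjusted p in cerebellum belonged to Ephb1. Its log2 levels were 9.93, 10.02 and 10.06 in female cerebellum (lowest, median and highest of 6 arrays), against 9.65, 9.84 and 9.87 in male cerebellum, and they did not overlap. In frontal cortex they were 9.46, 9.76 and 9.94 in females, against 9.71, 9.83 and 9.90 in males, and overlapped. The sex difference of Ephb1 in cerebellum was 0.21 ± 0.07 (unadjusted p 0.0064 and adjusted p 0.60 with limma). It was 0.21 in label batch a and 0.21 in label batch b, with adjusted p of 0.69 and 0.29, and the interaction was 0.31 ± 0.10 (adjusted p 0.52). Efnb1 had levels of 5.39, 5.62 and 5.82 in female cerebellum, against 5.54, 5.86 and 6.01 in male cerebellum, overlapping, with a difference of -0.20 ± 0.08 (adjusted p 0.74). Plxnb3, the other member on the X chromosome, differed by -0.0039 ± 0.12 between the sexes in cerebellum and by -0.10 ± 0.12 in frontal cortex.

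Sema3f had the lowest unadjusted p by sex in frontal cortex, with levels of 6.92, 7.30 and 7.41 in females, against 7.21, 7.68 and 7.86 in males. The groups overlapped, and the difference was -0.38 ± 0.13 (unadjusted p 0.0063 and adjusted p 0.26). It was -0.05 in label batch a and -0.54 in label batch b, where it passed (adjusted p 0.038). Striatal neuron markers varied in the same groups, with summed levels of 2125 to 6356 in female frontal cortex and 4391 to 10862 in male frontal cortex, and a median difference of -0.68 over 7 genes. With limma 0 of the 7 passed the threshold by sex, and 7 had an unadjusted p under 0.05, as had 1037 of all 11439 genes. Summed olfactory bulb markers reached 336 in female and 635 in male frontal cortex, with a median difference of -0.75 over 3 genes and 0 past the threshold with limma (2 at an unadjusted p under 0.05). The part of either tissue in the Sema3f difference was not tested. Sema6a differed by 0.19 ± 0.09 in frontal cortex (adjusted p 0.50), with levels of 5.38, 5.51 and 5.80 in females and 5.16, 5.35 and 5.52 in males.

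Genes that work with these families were read from 3 lists. Of 24 measured semaphorin co-receptor and signalling genes, out of 30 listed, 4 were higher in cerebellum, 9 lower and 11 did not pass. Over all genes 37.6% were higher there and 32.9% lower. Nrp1, the neuropilin bound by Sema3a, had a log2 difference of -1.18, Dpysl3, a collapsin response mediator, of -1.64, the adaptor Gipc1 of -1.06 and the adhesion molecule Nrcam of -0.91. Higher were Dpysl4 by 1.11, the adhesion molecule Cntn2 by 0.92 and Micall1 by 0.72. Dpysl3 and Dpysl4, of the same family, thus differed in opposite directions.

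Of 21 measured Eph and ephrin signalling genes, out of 29 listed, 10 were higher in cerebellum, 9 lower and 2 did not pass. Over all genes 37.6% were higher there and 32.9% lower. Ngef, the exchange factor ephexin that Eph receptors bind, averaged 6.63 ± 0.47 in cerebellum and 11.54 ± 0.11 in frontal cortex (log2 intensity, SD, n = 12 each), a difference of -4.91. Chn2, a Rac-inactivating chimaerin, averaged 12.51 ± 0.17 in cerebellum and 8.68 ± 0.38 in frontal cortex, a difference of 3.83. Both groups of arrays were far apart relative to their SD. Kalrn (-2.54), Sipa1l1 (-2.25) and the phosphatase Ptpro (-2.04) were lower in cerebellum, and the exchange factors Tiam1 (1.62) and Vav3 (1.24) and the adaptor Nck1 (0.92) were higher there.

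In the other guidance families 5 of 17 measured genes, out of 22 listed, were higher in cerebellum and 10 lower, with a median difference of -0.43. Over all genes 37.6% were higher there and 32.9% lower, with a median of 0.03. The secreted Slit2 (-2.91) and Slit3 (-1.19) were lower in cerebellum, as were their receptors Robo2 (-1.26) and Robo1 (-1.03). The netrin receptors Unc5b (2.37) and Unc5c (0.98), the netrin Ntn4 (1.03) and the endothelial Robo4 (0.28) were higher. With limma, 0 genes of the 3 lists passed by sex in either tissue. At an unadjusted p under 0.05 there were 0, 2 and 0 genes of the lists, in the order given, in cerebellum and 1, 1 and 3 in frontal cortex. Of all 11439 genes, 624 had such a p in cerebellum and 1037 in frontal cortex.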

How the data were processed

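Total RNA of cerebellum and frontal cortex was amplified, labelled with biotin and hybridised, per the labels. Per the file headers, the scanner table deposited by the authors gives mean bead intensity on a linear scale, its standard error, another value giving bead numbers, and a detection p-value. The authors' second table held intensity values normalized between arrays; Partek is named in the submitters' processing notes, without role or version.

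For the work here, neqc (limma 3.58.1, R 4.3.3, offset 16) corrected the background of the scanner intensity and normalized it by quantiles to log2 values. Probes detected at p under 0.05 on 6 or more arrays were kept, 21113 of 45281. Means of the 4 groups were fitted to 24 arrays with lmFit and eBayes (20 residual and 5.82 prior degrees of freedom), with Benjamini-Hochberg adjustment over all kept probes at 0.05; all adjusted p come from limma. The fit was tested on simulated data. Differences are cerebellum minus frontal cortex or female minus male. Lower bounds use the dimmest detected level of each array. Levels of different probes were not compared. Of 34885 probes with 1 symbol, 34807 were matched to RefSeq by Entrez ID. The labels give both tissues of an animal 1 animal label; deviations of its arrays from the group means correlated at -0.30 to 0.24, over 0.1 in 5 of 12 animals. Values were given for members past a sex or interaction threshold, for up to 15 most raised and 15 most reduced by tissue with the same sign in both sexes, and for the brightest and the least different member of each symbol group; the other members named with values were chosen after their values were seen. The precision of each value is limited by the number of arrays. Members, gene lists and markers were chosen with earlier results of these data known. Alternatives covered background correction, normalization, filters, moderation, label batch, pairing, probe choice and each array left out.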

Additional observations from a re-analysis of the deposited data

Results flagged for a closer look

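In 5 of 128 combinations of member and group, 1 of the 6 arrays lay far from the others relative to the range of its group; chance flags about 1 in 20 groups, or 6.4 of 128. Efnb1 was lowest in male frontal cortex replicate 6, at a log2 level of 6.59, with the nearest array at 6.67. Ephb4 was lowest in male cerebellum replicate 2, at 5.24, with the nearest at 5.86. Plxnb2 was highest in male cerebellum replicate 1, at 7.81, with the nearest at 7.49. Sema4g was lowest in male frontal cortex replicate 4, at 5.05, with the nearest at 5.40, and Sema7a was lowest in female frontal cortex replicate 6, at 9.55, with the nearest at 9.84. The probe was detected on each of the 6 arrays in these groups, and without any single array these 5 genes kept their tissue call.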

How the results depend on the processing

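Across 24 fits that each left out 1 array, 11 members stayed counted as higher in cerebellum and 12 to 15 as lower, averaged over the sexes. In females 10 to 11 were higher and 12 lower, in males 9 were higher and 14 to 15 lower, and 0 passed by sex in either tissue or by the interaction. Efnb3 lost its call without female cerebellum replicate 5 (-0.13), male cerebellum replicate 6 (-0.14), female frontal cortex replicate 3 (-0.12) or male frontal cortex replicate 3 (-0.14). Sema3f gained one without female cerebellum replicate 3 (-0.22), female frontal cortex replicate 4 (-0.21) or male frontal cortex replicate 1 (-0.22), Sema5a without male cerebellum replicate 6 (-0.17), male frontal cortex replicate 1 (-0.20) or replicate 2 (-0.18), and Sema4b without male cerebellum replicate 4 (-0.17). With the animal as a fixed replicate block, a pairing that comes from the labels, 11 members were higher and 15 lower. Sema3f and Sema5a were the added calls and no other tissue call of a member changed. As a random block, the animal left the counts of the main fit, 11 higher and 13 lower, at a consensus correlation of -0.016. Label batch b alone gave 1 member by sex in frontal cortex, Sema3f. In the tissue comparison within females, label batch a alone gave 5 members higher in cerebellum than in frontal cortex, from fewer arrays. Signs reversed for Efnb3 with label batch a alone (0.0045), Ephb1 under median scaling (-0.0641) and Sema3a as the mean of its probes (0.0067). Medians of families moved with the filter: Eph receptors to -0.76 at 12 or more arrays, plexins to -0.212 at 12 or more and at all 24 arrays, and ephrins to -1.16 at all 24 arrays and -0.12 with no filter. The ephrin median was -0.46 without background correction, -0.53 with normexp by maximum likelihood and -0.52 with the authors' values. No share of all genes is given beside the counts of any alternative fit. Scaling moved the median of all probes by less than 0.1. Members near the dimmest detected level have differences that signal over background limits.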
